A study of Mus musculus with 4 samples.

Results

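GATA2 is a zinc finger transcription factor that binds DNA at GATA sequences and is best known for its part in blood stem cells and their progenitors. Many sites of such factors lie in introns, often far from the promoter, where they can act as enhancers of the gene that holds them or of a neighbour. The summits described here are those that lay inside a protein-coding gene and over 5 kb from every start or end of a protein-coding gene (a boundary). They were chosen by position alone, and 235 of the 995 GATA2 summits (23.6%) met the rule, in 226 of 945 intervals. Each of the 235 lay inside exactly 1 protein-coding gene, called its host. The hosts were 200 different genes.

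The summits came from CUT&Tag, in which an antibody directs a transposase to cut and tag nearby chromatin. The cells were BVSC+ germ cells from ovaries of female mouse fetuses at E13.5, dissociated with trypsin and taken from matings of C57BL/6J females with BVSC males. BVSC stands for the reporter transgenes Blimp1-mVenus and Stella-ECFP, which all samples carried. A GATA2 antibody was used for 2 libraries and no antibody for 2 input libraries. The only values used here are 1 list for the 2 GATA2 libraries together, so no value had a spread between replicates. No further comparison of GATA2 with input samples was made. Which libraries served as the control in that list was not given. The number of animals behind a library was not stated. The data hold no RNA level, so the identity of the sorted cells could not be checked against marker expression.

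The list gives each summit a fold enrichment over the local background and a −log10 q, the caller's adjusted significance, for which 1.30 stands for a q of 0.05. Both are the authors' values. The 235 summits had a median fold of 4.42 (quartiles 3.65 and 5.22, range 2.81 to 19.1) and a median interval width of 334 bp. Solved from those values, the number of GATA2 fragments covering a summit had a median of 10 (quartiles 8 and 12) and ran from 6 to 53. Of the 235 summits, 171 (72.8%) had a q of at most 0.05, against 67.7% of all summits. Most of the summits thus rest on few fragments, and the differences between the weaker ones lie within counting error.

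Part of the summits lay at promoters inside their host. RefSeq lists the starts of transcripts with 300 bases around each, and a gene can have several starts or a listed start far inside its outermost boundary. Of the 225 summits on chromosomes with listed starts, 25 (11.1%, 95% exact interval 7.32% to 16.0%) lay within 1 kb of such a start, although all were over 5 kb from the outer ends of genes. Only 0.918% of the eligible sequence, that is all sequence that meets the position rule, lies within 1 kb of a listed start. The start belonged to the host itself at 22 of the 25 summits and to a long non-coding RNA gene at 3, 4933431G14Rik inside St3gal5, Gm34655 inside Ulk4 and Gm40345 inside Por. The other 10 summits had no listed start to compare with.

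The windows at these starts are the ones for which sequence could be read, and they show what lies under such a summit. A window runs from 250 bases before a start to 50 bases after it, and 12 of the 235 summits fell inside one, in 14 windows. The GATA letters searched were AGATAA and AGATAG, and the same pair with T in place of the first A, on both strands. Matches that overlap were counted as 1 window with a match. At least 1 match was found in 5 of the 14 windows (35.7%), against 29.6% of all 32619 windows. The 14 windows had a median GC content of 61%, against 53% over all windows. The 199 windows that held a summit within 1 kb of a boundary had a median of 60.7% and a match in 28.6%. A high GC content was thus not particular to the summits inside genes. Nr1h3 and Gm34655 each gave overlapping windows, so the 14 are not all independent. The 5 windows with a match are shown with the one at Prdm1, which had none, as the 250 bases before the start, 5′ to 3′ on the gene's strand, from RefSeq on GRCm38.p6. Capitals mark the GATA letters, which are read in reverse complement where they lie on the opposite strand.
Pde4dip (chr3:97768015-97768264, - strand): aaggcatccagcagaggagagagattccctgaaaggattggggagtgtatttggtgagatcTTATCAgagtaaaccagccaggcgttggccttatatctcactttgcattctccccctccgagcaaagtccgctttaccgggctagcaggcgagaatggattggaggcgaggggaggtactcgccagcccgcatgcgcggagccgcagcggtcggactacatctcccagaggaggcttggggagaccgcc
Fpgs (chr2:32694176-32694425, - strand): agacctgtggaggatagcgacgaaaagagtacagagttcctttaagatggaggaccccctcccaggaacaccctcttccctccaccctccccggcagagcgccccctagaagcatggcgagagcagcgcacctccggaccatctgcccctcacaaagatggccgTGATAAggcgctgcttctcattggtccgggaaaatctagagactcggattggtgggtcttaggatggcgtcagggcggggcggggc
Specc1 (chr11:62076774-62077023, + strand): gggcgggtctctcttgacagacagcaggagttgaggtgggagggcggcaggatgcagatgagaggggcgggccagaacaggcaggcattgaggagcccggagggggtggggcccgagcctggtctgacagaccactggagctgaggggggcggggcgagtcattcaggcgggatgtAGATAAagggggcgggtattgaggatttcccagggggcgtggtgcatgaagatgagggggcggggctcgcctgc
Sp2 (chr11:96977689-96977938, - strand): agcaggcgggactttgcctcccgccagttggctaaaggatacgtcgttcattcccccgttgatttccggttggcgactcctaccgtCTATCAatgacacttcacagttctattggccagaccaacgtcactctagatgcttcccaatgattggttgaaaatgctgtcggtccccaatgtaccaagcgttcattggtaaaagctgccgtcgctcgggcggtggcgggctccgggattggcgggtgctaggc
Ttll9 (chr2:152962235-152962484, + strand): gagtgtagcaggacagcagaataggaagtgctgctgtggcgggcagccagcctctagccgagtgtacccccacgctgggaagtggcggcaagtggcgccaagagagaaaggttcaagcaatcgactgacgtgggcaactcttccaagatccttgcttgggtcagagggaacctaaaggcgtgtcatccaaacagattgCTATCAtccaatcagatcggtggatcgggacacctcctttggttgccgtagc
Prdm1 (chr10:44458749-44458998, - strand): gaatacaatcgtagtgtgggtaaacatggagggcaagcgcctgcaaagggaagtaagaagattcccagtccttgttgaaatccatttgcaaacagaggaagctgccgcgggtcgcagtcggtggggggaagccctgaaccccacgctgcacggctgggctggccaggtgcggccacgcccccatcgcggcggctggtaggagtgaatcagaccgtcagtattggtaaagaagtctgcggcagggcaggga

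At Fpgs, which encodes the enzyme that adds glutamates to folate, the summit and the match stood side by side. The summit lay 87 bases before the start and the match began 86 bases before it, a gap of 1 base, at a fold of 6.64 on 16 fragments (−log10 q 7.02). At Ttll9, a gene of the tubulin ligase-like family, the match was 22 bases from the summit, but the fold was 3.08 on 6 fragments and the q missed 0.05 (−log10 q 0.30). The gaps were 60 bases at Sp2, an Sp family factor gene (3.44-fold), 74 at Pde4dip, which encodes the centrosome and Golgi protein myomegalin, and 103 at Specc1 (4.50-fold). Pde4dip had a pair of summits in 1 interval, one 110 bases before the start (8.42-fold, 21 fragments) and one 102 bases after it (7.0-fold, 17 fragments). No match was found in the windows at Nr1h3, encoding the oxysterol receptor LXR alpha (4.50-fold), Arntl, encoding the clock factor BMAL1 (3.72-fold), Hif1a, encoding the oxygen-responsive factor (3.44-fold), Ptprs (3.08-fold), Zfp672 (3.08-fold), Prdm1 (3.91-fold) and Gm34655 (3.08-fold). A match is a description of the letters, and a missing one says only that they are not in the window.

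The summits at internal starts were weaker than the other summits inside genes. Their median fold was 3.44, against 4.50 for the 200 that lay over 1 kb from any listed start. Of those 200, 162 lay in hosts with a listed strand, and for the others a start of the host could be missed. At starts 9 of 25 (36%) had a q of at most 0.05, and away from them 155 of 200 (77.5%) did (Fisher's exact test, two-sided, adjusted p = 8.75e-05). A fold of 5 or more was reached by 3 of 25 (12%) and by 64 of 200 (32%) (Fisher's exact test, adjusted p = 0.0393), against 27.4% of all summits. The 3 were both Pde4dip summits and the Fpgs summit. The comparison was chosen after the values were seen, p-values were adjusted over these 2 tests, and summits of 1 interval are not independent.

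**Figure D1:**
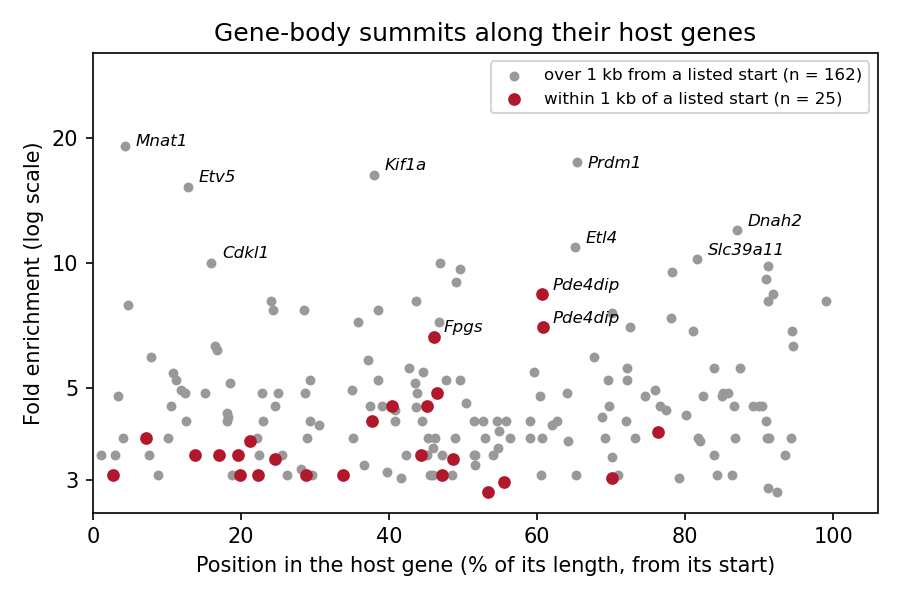
Fold enrichment (log axis) of the 187 summits whose host has a listed strand, against the position in the host as a percentage of its length from its start; 1 point is 1 summit, and red points lie within 1 kb of a listed start. The red points lie mostly at the low folds, other than Pde4dip and Fpgs, and the strongest summits are spread over the whole length of their hosts.

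Along the host, no preference for an end was detected. Of the 187 summits in hosts with a listed strand, 101 (54.0%, exact interval 46.6% to 61.3%) lay nearer to the start of the host than to its end, where 50% of the eligible sequence lies. In 4 equal parts of the host from its start the counts were 43, 58, 45 and 41. The summits at listed starts lay on the start side in 19 of 25 cases (76%, interval 54.9% to 90.6%), and those away from starts in 82 of 162 (50.6%, interval 42.7% to 58.6%). On which side the listed starts themselves lie was not counted, so the share of 76% has no background to be read against. In the plot of fold against position in the host, Mnat1 (4.3% from its start) and Asic2 (99.0%) stand at opposite ends among the first 25 summits.

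For some summits the word "inside" depends on the gene model. In 22 of 187 cases (11.8%, exact interval 7.52% to 17.3%), in 18 hosts, the summit lay within the outer ends of the host but before every start listed for it, where 4.33% of the eligible sequence lies. The strongest and the second of all 235 summits were among these. The summit in Mnat1, which encodes an assembly factor of the CDK-activating kinase, lay 4.55 kb before the listed start (19.1-fold, 51 fragments). All 5 summits in Prdm1, whose product BLIMP1 is required to set germ cells apart, lay before the only listed start of that gene, by 0.047, 5.68, 10.0, 34.6 and 44.2 kb. Tenm2 (6.17-fold), Pacsin1 (5.12-fold), Phldb2 (4.86-fold), Ntm (4.15-fold) and Tbxas1 (3.79-fold) had 1 such summit each over 1 kb away from any listed start. Of the 22, 12 lay within 1 kb of a start and 13 had a q of at most 0.05.

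The host was not always the gene with the nearest boundary. At 218 of 235 summits the nearest boundary was one of the host, and at the other 17 (7.23%, exact interval 4.27% to 11.3%) it belonged to another gene. These are boundaries of protein-coding genes: with the boundaries of all annotated genes, non-coding ones included, the share was 46.0% of 211 summits. The strongest of the 17 was the Mnat1 summit, 5.14 kb from the homeobox gene Six4 and 6.98 kb from a boundary of Mnat1. The summit in Zbtb20, a zinc finger repressor gene (8.42-fold), was nearest to the immune receptor gene Tigit, at 53.5 kb, with a boundary of Zbtb20 61.8 kb away. Both summits in Arhgap26, on chromosome 18 (7.35-fold and 6.28-fold), were nearest to Gm5820, at 11.4 and 8.89 kb, while a boundary of the host was 383 and 386 kb away. Rabgap1l (5.22-fold) gave way to Gpr52 at 45.4 kb, Glb1, encoding the lysosomal beta-galactosidase (5.22-fold), to Tmppe at 24.8 kb, and Calcoco2 (4.86-fold and 4.15-fold) to Ttll6 at 8.16 and 10.3 kb. The remaining ones, at folds of 2.97 to 4.50, had the hosts Nr1h3, Anln, Dst, Fbxl17, Tbxas1, Cops3, Mesd, Ttll9 and Stk25. For Dst the distances to Bend6 and to a boundary of Dst itself were 195.97 and 196.02 kb, so the order there rests on under 0.1 kb.

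The 25 summits of highest fold lay in 23 hosts, all with a −log10 q of 7.31 or more and with 19 to 53 fragments. After Mnat1 came Prdm1 (17.5-fold, chromosome 10, summit at 44468753), Kif1a, encoding an axonal kinesin (16.3-fold, chromosome 1, 93069190), and Etv5, an ETS factor gene (15.2-fold, chromosome 16, 22432111). The 95% Poisson intervals of their fragment numbers, 53, 44 and 41, are 39.7 to 69.3, 32 to 59.1 and 29.4 to 55.6, so these neighbours cannot be ranked. Dnah2, an axonemal dynein heavy chain gene (12.0-fold), Etl4 (10.9-fold), the zinc transporter gene Slc39a11 (10.2-fold), the kinase gene Cdkl1 and the actin regulator gene Cap2 (both 10.0-fold) completed the 9 summits with a fold of 10 or more. Of all 995 summits, 33 (3.32%) reached that fold.

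The other hosts of the first 25 were of mixed function. Eif2ak3, which encodes the unfolded-protein sensor PERK, had a summit of 9.84-fold and another of 9.13-fold. Acte1 (9.65-fold), Tmco4 (9.49-fold) and the ubiquitin ligase gene Znrf2 (8.96-fold) followed. The acid-sensing channel gene Asic2, the WNT effector gene Tcf7l2, the adhesion gene Sdk1 and the planar polarity cadherin gene Celsr3 all stood at 8.06-fold on 20 fragments. Foxk1, a forkhead factor gene, and Dock1, encoding a Rac activator, had 7.91-fold, the netrin receptor gene Unc5b and Frmd4b had 7.71-fold, and a further Prdm1 summit stood at 7.68-fold. Pde4dip and Zbtb20 (8.42-fold) are described above.

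Counting several summits per gene, 28 of the 200 hosts had 2 or more, 63 summits in all, and 172 had 1. In 7 of the 28 hosts the summits shared an interval, as at Eif2ak3 (3 summits over 0.51 kb), Cap2, Znrf2, Pde4dip, Unc5b, Rbpms and the argininosuccinate synthase gene Ass1. In the other 21 they lay in separate intervals, over a median span of 34.2 kb and at most 306 kb, at the receptor phosphatase gene Ptprg. Dnah2 had 4 summits in 3 intervals over 34.2 kb, with folds of 12.0, 4.77, 4.50 and 4.07, all with a q of at most 0.05. Foxk1 had 3 over 26.2 kb, with folds of 7.91, 4.86 and 3.79, also all with a q of at most 0.05. In Dnah2 the 4.50-fold summit shared the interval of the strongest one, 0.524 kb from it, and the other summits of both genes lay in intervals of their own.

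Pairs of summits in 2 intervals were found in 18 hosts. They were far apart in Mast4 (7.35-fold and 4.07-fold, 287 kb), Sdk1 (142 kb), Ntm (140 kb), Myo5b (93.6 kb), Ablim1 (84.0 kb), Etl4 (66.8 kb), Kirrel3 (53.3 kb), BC052040 (40.1 kb), Dlgap1 (24.9 kb) and Tead1, encoding a nuclear partner of YAP (5.93-fold and 3.79-fold, 13.7 kb). They lay within 10 kb of each other in Atp7b, Pced1b, Arhgap26, Calcoco2, Runx1t1, Acte1 and Slc39a11. In Ptprg both summits were weak (3.44-fold and 3.08-fold, both with a −log10 q of 0.30).

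The 5 summits in Prdm1 lay in 5 intervals over 44.1 kb. Prdm1 is the gene whose regulatory sequence drives the mVenus reporter of the sorted cells, as the name Blimp1-mVenus says. From the strongest down, the folds were 17.5, 7.68, 3.91, 3.40 and 3.19. The corresponding control backgrounds were 0.203, 1.00, 0.223, 0.406 and 0.142 per position, against 0.0608 genome-wide. Backgrounds are given on the caller's scale, on which 1 GATA2 fragment counts as 0.378. All 5 thus stood on a raised background, and only the first and the second had a q of at most 0.05. The part of the transgene in these summits was not tested. Over all 235 summits the background was raised, by over 1%, at 68 (28.9%), against 29.9% of all summits. Leaving out the loci of both reporter genes and a ribosomal RNA pseudogene left 230 summits in 199 hosts.

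Long genes were hosts more often than short ones, yet per length of sequence the summits were sparser in them. The hosts had a median length of 112 kb, against 33.8 kb for the 13734 genes with any eligible sequence, and 107 of 200 (53.5%, exact interval 46.3% to 60.6%) were longer than 100 kb, against 17.7% of those genes. The share of genes that were hosts rose from 0.489% of genes under 50 kb to 9.29% of genes over 500 kb. The density of summits was 3.69 per 10 Mb of eligible sequence in all genes under 50 kb, hosts or not (95% Poisson interval 2.69 to 4.94) and 4.20 (3.22 to 5.39) at 50 to 100 kb. It was 2.98 (2.32 to 3.77) at 100 to 250 kb, 1.82 (1.23 to 2.59) at 250 to 500 kb and 1.55 (1.04 to 2.2) over 500 kb. The intervals of the first and second class do not overlap those of the last. Without the summits at listed starts the densities were 2.95, 3.80, 2.68, 1.63 and 1.55, in the same sequence of classes.

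**Figure D2:**
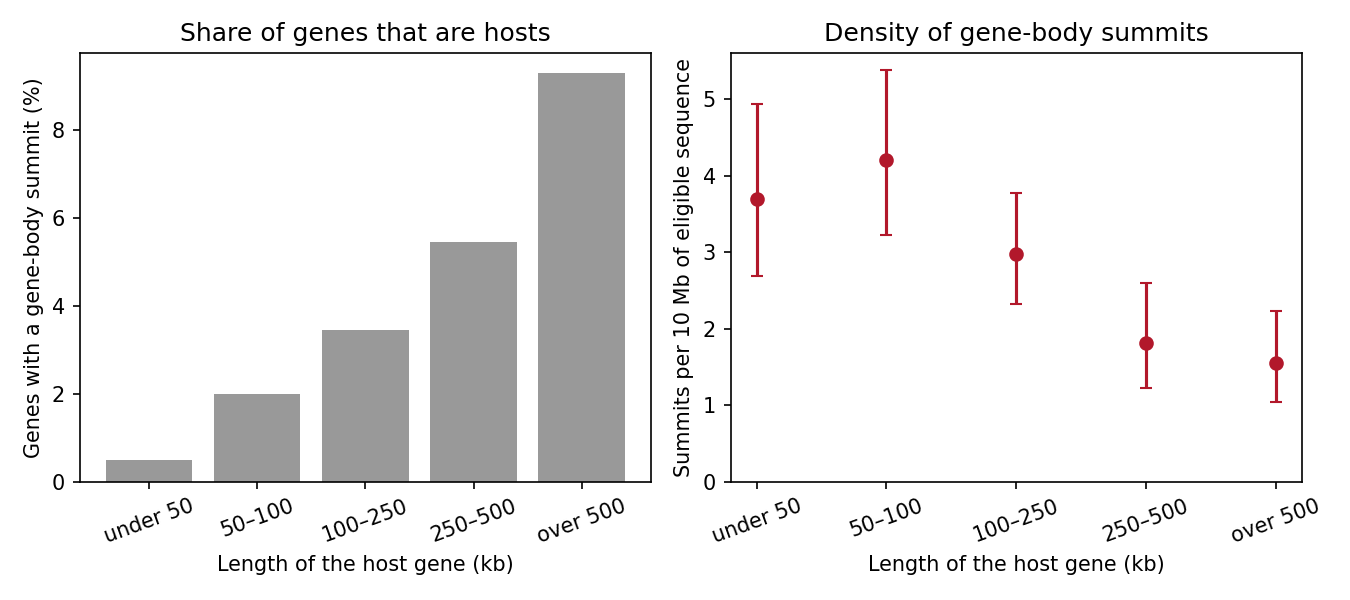
Left, percentage of genes with eligible sequence that held a gene-body summit; right, summits per 10 Mb of eligible sequence with 95% Poisson intervals; both by length of the host gene in kb. The share of hosts rises from 0.489% to 9.29% with length, while the density falls from 4.20 at 50 to 100 kb to 1.55 over 500 kb.

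The few summits in the longest hosts were not weaker. The share with a q of at most 0.05 was 62.2% in hosts under 50 kb and 86.2% (25 of 29) in hosts over 500 kb, with median folds of 4.15 and 5.22. The weaker summits at listed starts were 9 of 45 in hosts under 50 kb and 0 of 29 in hosts over 500 kb. Their part in this contrast was not tested. The longest hosts were Fhit (1612 kb, 3.44-fold), the teneurin gene Tenm2 (1230 kb, 6.17-fold), the receptor phosphatase gene Ptprt (1139 kb, 5.57-fold), Auts2 (1106 kb, 3.79-fold) and Asic2 (1088 kb, 8.06-fold). The summits farthest from any boundary lay in Ntm (439 and 299 kb), Etl4 (314 and 247 kb) and Ptprg (314 kb). Etl4 combined distance with strength, at 10.9-fold for the farther one and 7.0-fold for the other. Over all 235 summits the median distance to the nearest boundary was 25.7 kb, and 31 were over 100 kb away.

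The X chromosome held 1 gene-body summit in 38.2 Mb of eligible sequence, or 0.262 per 10 Mb (Poisson interval 0.00663 to 1.46), against 2.87 (2.52 to 3.26) on the autosomes. It lay in Taf1, encoding the largest subunit of the general factor TFIID, 99 bases from a listed start (3.79-fold, −log10 q 1.75). Chromosome 11 had the highest density, 4.63 (2.83 to 7.15), and chromosome 1 the lowest among autosomes, 1.49 (0.716 to 2.75). Of all 995 summits, at any position, 17 lay on the X chromosome, so summits were few there outside gene bodies too. How well reads map was not taken into account.

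Over the whole class the density was 2.76 summits per 10 Mb (2.41 to 3.13), and between genes, over 5 kb from every boundary, it was 1.73 (1.52 to 1.96). Both densities count every base, whether or not reads can map there, so the difference may partly be one of mapping, which was not tested. Summits inside genes were compared with the 246 of that intergenic class and with the 365 within 1 kb of a boundary, on 3 measures, with p-values adjusted over the 6 comparisons. More summits inside genes than at boundaries had a q of at most 0.05, 72.8% against 62.5% (Fisher's exact test, two-sided, adjusted p = 0.0443). A fold of 5 or more was also reached more often, by 70 of 235 (29.8%) against 76 of 365 (20.8%) (Fisher's exact test, adjusted p = 0.0443). With 1 summit per interval both differences missed the threshold (Fisher's exact test, adjusted p = 0.0709 and 0.109), and without the reporter and ribosomal loci the second did (adjusted p = 0.0708).

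Against the intergenic class no difference was detected. The share with a q of at most 0.05 was 72.8% inside genes and 71.1% between them (odds ratio 1.08, 95% interval 0.714 to 1.65; Fisher's exact test, adjusted p = 0.775). A fold of 5 or more was reached by 29.8% and 33.7% (odds ratio 0.833, interval 0.556 to 1.25; exact test, adjusted p = 0.757). Intervals wider than 500 bp made up 25.1% inside genes, 26.8% between genes and 26.3% at boundaries, against 26.3% of all summits (Fisher's exact test, adjusted p = 0.775 for both comparisons). These intervals leave room for differences in either direction.

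**Figure D3:**
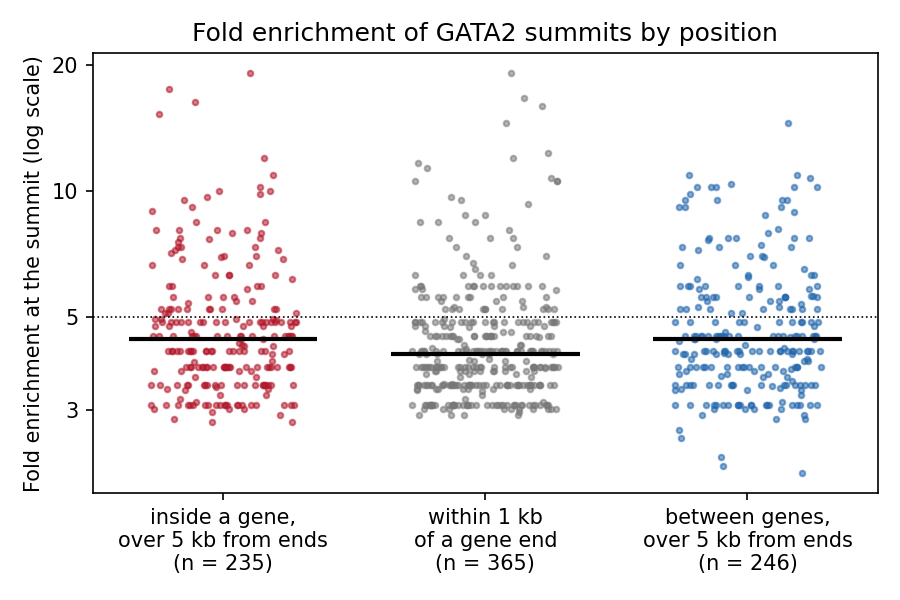
Fold enrichment (log axis) of each summit in the 3 position classes; a point is 1 summit, the bar is the median and the dotted line marks a fold of 5. The medians are 4.42 inside genes, 4.07 within 1 kb of a boundary and 4.42 between genes.

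The share of hosts that also had a summit at an own boundary was not told apart from that of all genes. Such a summit was found for 7 of 200 hosts (3.5%, exact interval 1.42% to 7.08%), against 2.34% of the genes with eligible sequence, which that interval includes. In all 7 it was the outer boundary on the start side of the gene and not the one at its end. In Prdm1 that boundary is not the listed start, which lies farther inside the gene. Listed starts were near most of the boundary class. On chromosomes with listed starts, 301 of 355 boundary summits (84.8%) lay within 1 kb of a listed start. The strongest summit inside the gene was higher than the one at the outer boundary in 3 hosts. These were Prdm1 (17.5-fold against 4.15-fold), Etv5 (15.2-fold against 3.92-fold) and Ttc41 (4.15-fold against 3.08-fold). The summit at the outer boundary was higher in Zbtb20 (19.1-fold against 8.42-fold), Lin52 (8.42-fold against 3.79-fold), Arhgap35 (5.93-fold against 5.41-fold) and the FOG1 gene Zfpm1 (4.86-fold against 3.79-fold).

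By function, hosts were counted in 13 gene lists and in 15 families that take genes by the start of their symbol. The background is 1.46% of genes with eligible sequence being hosts and 2.76 summits per 10 Mb. Of 21 pluripotency genes with eligible sequence, 2 were hosts, Etv5 and Esrrb, an orphan nuclear receptor gene of naive pluripotency (7.56-fold, −log10 q 8.12). Of 16 genes of the GATA family and its cofactors 3 were hosts, Lmo4 (4.50-fold), Lmo1 (4.29-fold) and Zfpm1, where the LMO genes encode LIM-only adaptors that link GATA factors to partners. All 3 had a q of at most 0.05, close to the threshold. WNT genes had 2 hosts of 39, Tcf7l2 and the gene of the WNT receptor-clearing ligase Znrf3 (4.50-fold). FGF and ERK genes had 1 of 32, Etv5, retinoic acid genes 1 of 16, the corepressor gene Nrip1 (5.57-fold), and germ cell genes 1 of 21, Prdm1.

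Several lists had no host. They were the meiosis list, with 0 of 42 genes, the oocyte list with 0 of 10, the BMP and TGF-beta list with 0 of 31 and the list of chromatin and DNA methylation genes with 0 of 51. Counts of 0 allow shares of up to 7.14%, 30%, 9.68% and 5.88% (3 counts of the total), all above the background of 1.46%, so a shortfall was not detectable. Markers of other cells of the ovary were hosts in 0 of 15 somatic gonad, 0 of 17 endothelial and 1 of 21 blood genes, where the 1 was Zfpm1. The lists were written with earlier results of these data known, and names such as Etv5, Esrrb, Prdm1, Tcf7l2 and Zfpm1 are no independent evidence.

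Families taken by symbol leave out genes of like function under other symbols, so their counts describe the symbols only. Kinesin, dynein and myosin genes (Kif, Dnah, Dync, Dynl and Myo) were hosts in 7 of 87 cases (8.05%), with 11 summits or 10.7 per 10 Mb (5.35 to 19.2). Of these, 4 summits came from Dnah2, and Kif1a and Dnah2 were known when the family was written. The others were Myo5b (5.22-fold and 3.34-fold), Dnah8 (4.77-fold), Myo1h (4.50-fold), Myo1e (4.15-fold) and Kif14 (3.44-fold).

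Hosts that encode sequence-specific factors came from several classes. Etv5 is an ETS factor, Bach2 (4.50-fold) a bZIP factor, Tcf7l2 an HMG box factor, Tead1 a TEA domain factor, and Arntl and Hif1a, described above at their starts, are bHLH factors. Runx1t1 (5.22-fold and 4.15-fold) and Atf7ip (5.12-fold) encode cofactors of such proteins. The summits in Etv5, Bach2, Tcf7l2, Tead1, Runx1t1, Atf7ip and Arntl had a q of at most 0.05, and the one in Hif1a did not.

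By symbol (Zfp, Zbtb, Prdm and related ones), zinc finger genes had 5 hosts of 390 (1.28%), Prdm1, Zbtb20, Zfpm1, Zfp704 (3.72-fold) and Zfp672, a share near the background. Their 9 summits gave 6.27 per 10 Mb (2.86 to 11.9), and 5 of the 9 lay in Prdm1. Homeobox, SOX, forkhead and T-box genes had 3 of 74, Foxk1, Pou2f3 (4.15-fold) and Pax2 (3.08-fold), and nuclear receptors 2 of 38, Esrrb and Nr1h3. Rab and Ras regulators had 4 of 150, Rabgap1l, Ralgapa2 (4.15-fold), Rab6b (3.79-fold) and Sipa1l1 (3.08-fold).

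Adhesion genes among the hosts included Sdk1 and Celsr3, given above, Cdh4 (6.95-fold), Kirrel3 (6.64-fold and 4.15-fold), Tenm2, Ctnnd2 (4.50-fold), Ntm and Pcdh7 (3.79-fold). Channel genes included Asic2 and the glutamate receptor gene Grin2b (4.50-fold). By symbol, cadherin, protocadherin, catenin and other adhesion genes had 4 hosts of 160 (2.5%) and 0.966 summits per 10 Mb (0.263 to 2.47). Ion channel and neuronal receptor genes had 1 of 211 (0.474%), Grin2b, and 0.300 per 10 Mb (0.0076 to 1.67). The background was 1.46% of genes and 2.76 per 10 Mb. That density covers genes of all lengths, and it was 1.82 in genes of 250 to 500 kb and 1.55 over 500 kb. No background matched on gene length was counted, so a shortfall cannot be read from these densities. Sdk1, Celsr3, Kirrel3, Ntm and Asic2 are not in these counts, since the families take genes by symbol.

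Solute carrier, ABC transporter and ATPase genes, by symbol (Slc, Abc and Atp), had 8 hosts of 434 and 4.19 summits per 10 Mb (2.01 to 7.71), led by Slc39a11, the glucose transporter gene Slc2a3 (6.64-fold), the copper transporter gene Atp7b (5.22-fold and 3.72-fold) and Atp8a2 (4.86-fold). Kinase genes among the hosts included Cdkl1, Eif2ak3 and Mast4, and receptor phosphatase genes Ptprn2 (6.28-fold), Ptprt, Ptprg and Ptprs. By symbol, kinase and phosphatase genes had 8 hosts of 311 (2.57%), Cdkl1 and Eif2ak3 not counted, against 1.46% of all genes with eligible sequence. Genes of ubiquitin transfer or removal included Znrf2, Znrf3, Fbxl17 (3.79-fold), Ube2u and Usp46 (both 3.44-fold) and Fbxl19 (3.25-fold). By symbol, such genes had 4 hosts of 310 (1.29%), Znrf2 and Znrf3 not counted, a share near the background. Of the 6 genes named, the first 3 had a q of at most 0.05 in all of their summits, and the last 3 had none. Over all 235 summits the share was 72.8%. Hosts with other roles were Arid3b (4.15-fold) and Arid5b (3.08-fold), which encode ARID domain proteins, the collagen gene Col25a1 (4.50-fold) and the RNA-binding protein gene Igf2bp1 (4.50-fold). The families by symbol that hold them had 2 hosts of 123 (1.63%), 1 of 120 (0.833%) and 1 of 122 (0.82%), in the same sequence. None of these shares was far above the background.

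At the 5 kb limit, the summits just inside lay in Nt5e (5007 bp from a boundary, 5.22-fold), Sp2 (5047 bp, 3.44-fold) and Mnat1 (5138 bp, 19.1-fold). The ones just outside, also inside a gene, lay in Ccsap (4757 bp, 4.15-fold), Timp2 (4735 bp, 4.15-fold) and Txndc12 (4562 bp, 3.08-fold).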

How the data were processed

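The deposited list follows the narrowPeak layout and, by its peak names, pools both GATA2 libraries. Per the submitters' processing notes, MACS2 2.2.6, bedtools 2.29.2, Picard 2.23.0, SAMtools, Bowtie2 2.3.5.1 and Trimmomatic 0.39 were used with GRCm38 (mm10). Roles, parameters and the choice of control libraries: not given in the sources used here. Each deposited fold is the caller's ratio of summit signal to local background, with 1 added to both. Significance was deposited as −log10 of the unadjusted p and of the q, and the deposited display score was not used beyond the layout.

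Summits (1-based) were placed against 21627 protein-coding genes of RefSeq GRCm38.p6 on their chromosomes, a table without exons or UTRs. Strand and starts came from RefSeq's promoter windows, none of which was on chromosome 18. Starts are those RefSeq's table lists, so others may exist. Library depth was not analysed here. Fragment numbers and control backgrounds were solved from fold and p, with a scale of 0.378 and a largest error of 0.000998 in −log10 p, and cover counting error only, since copies made by PCR may be counted too. With simulated summits, the solution recovered 1000 of 1000 fragment numbers, and the position rule classified 300 of 300 positions as placed. Shares have exact (Clopper-Pearson) and densities exact Poisson 95% intervals. For classes, Fisher's exact test was used, adjusted after Benjamini and Hochberg (scipy 1.17.1, Python 3.11.15). Summits are not replicates of a condition, so these tests compare positions within 1 pooled list.

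The position rule, the gene lists and the families were chosen with earlier results of these data known. Of 435 list entries 1 (Spo16) was not matched. Named genes are hosts of the 25 summits of highest fold, hosts with 2 or more summits, hosts in a list, the hosts of the 4 strongest summits of each family, the summits next to the 5 kb limit, the 5 longest hosts and the 5 summits farthest from a boundary; genes named for an internal start, a boundary summit, a nearer gene or a non-coding gene, or to complete a family, were chosen after their values were seen. The planned motif test in summit windows was not run, since no genome sequence was used here. The results of some families are not reported here.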

Additional observations from a re-analysis of the deposited data

How the results depend on the processing

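Of 90 results under alternative settings, 79 kept their call or stayed within 1.5 times or the exact interval of the reported value. Of the others, 7 moved, 4 lost their call and 0 turned direction past the threshold. A call of no detected difference also counted as kept where the sign changed. Against the intergenic class at a −log10 q of 5 or more, the width difference went from −1.72 to 10.7 points. The fold difference went from −3.95 to 1.92 points in the same setting. The alternatives on listed starts and on the position along the host, and those without the summits at listed starts, were chosen after seeing the data. At a −log10 q of 5 or more, 48 summits in 42 hosts remained, of which 66.7% of hosts were longer than 100 kb and 6.52% of summits lay at listed starts; the latter share was 5.49% at a q of at most 0.05. Over 10 kb from every boundary, 62.3% of hosts were longer than 100 kb. With boundaries of all annotated genes the nearest boundary was not of a host at 46.0% of summits, since non-coding genes then count. The excess over boundary summits, 10.3 percentage points for a q of at most 0.05 and 8.97 for a fold of 5 or more, lost its call with 1 summit per interval (10.2 and 8.0 points), and the latter also at a q of at most 0.05 (7.60 points, fewer summits) and without the reporter and ribosomal loci (8.51 points). At a −log10 q of 5 or more every summit of both classes passed a fold of 5, and the q measure has no test among summits selected on q. Most summits rest on about 10 fragments, which limits any ranking. No paired analysis was possible because the list pools both GATA2 replicates, and no replicate could be left out.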

Other observations

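Of the 235 summits, 18 also lay inside a long non-coding RNA gene within or across the host. No such share was counted for all summits or for the eligible sequence, so the 18 cannot be read against a background. The strongest were in Gm52792 within Sdk1 (8.06-fold), Gm46970 within Frmd4b (7.71-fold), Kirrel3os within Kirrel3 (6.64-fold, with a second summit at 4.15-fold) and Gm5441 within Ptprn2 (6.28-fold). Rgma, encoding an axon guidance molecule that is also a BMP coreceptor, held one in LOC115486533 (5.22-fold). The table used gives no expression, and which transcript, if any, is made in these cells was not tested.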
